A study of Mus musculus with 6 samples.

Results

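The Ahcy family was examined in RNA-seq of the mouse cochlear duct through 4 of the 14865 genes listed in the deposited table: Ahcy, its retrocopy Gm4737, and the homologues Ahcyl1 and Ahcyl2. They were taken by gene symbol, and the pair Ahcy and Gm4737 was of interest because their levels differed between genotypes in opposite directions. The values that chose them are the levels in the 6 libraries, so the genotype differences of these 4 genes are given as descriptions, without a test. The study compared cochlear ducts of Gfi1+/+ mice with those of Gfi1cre/+ mice at postnatal day 8 (P8), in 3 libraries per genotype. In Gfi1cre/+ mice, Cre recombinase replaces part of exon 1 and several of the exons that follow in 1 allele of Gfi1, a transcription factor of the hair cells, and is driven by the Gfi1 locus. Both genotypes carry the strain label C57BL/6. The Gfi1cre line arose on a mixture of 129S6 with C57BL/6J and was later kept on C57BL/6J. Each Gfi1+/+ library held RNA of 1 mouse, whereas each Gfi1cre/+ library pooled 3 mice, so the spread between Gfi1cre/+ libraries is a spread between pools. Whole ducts were used, in which fewer cells of a type and less RNA per cell cannot be told apart.

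AHCY hydrolyses S-adenosylhomocysteine, which every methyltransferase reaction leaves behind and which inhibits methyltransferases when it accumulates, into adenosine and homocysteine. Homocysteine is then remethylated to methionine or passed into transsulfuration, and adenosine is phosphorylated or deaminated. AHCYL1, also called IRBIT, and AHCYL2 are related in sequence but are known as regulators rather than hydrolases: IRBIT binds inositol trisphosphate receptors and ion transporters. A retrocopy is a gene copy made by reverse transcription of a spliced mRNA, which therefore has the exons of its parent without the introns.

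Gm4737 and Ahcy are near-identical over most of their transcripts. In the GENCODE annotation of GRCm38, Ahcy spans chr2:155059310-155074497 on the minus strand in 10 exons, and Gm4737 spans chr16:46152985-46155077 on the minus strand in 1 exon, is annotated as protein coding and carries the retrogene tag. The transcript Ahcy-201 (2543 bases) and the Gm4737 transcript (2093 bases) align over 2083 bases without a gap and differ at 6 of them, an identity of 99.7%. The shared stretch is 81.9% of the Ahcy transcript and 99.5% of that of Gm4737. The first 41 bases and the last 419 bases of Ahcy-201 lie outside it. Counted from 1 at the 5′ end of Ahcy-201, with the Ahcy base first, the differences are C564T, G579A, C1155T and C1173T in the coding sequence, and A1712T and G1716T in the 3′ untranslated sequence. All 4 coding differences leave the encoded residue the same, so the open reading frame of Gm4737 codes for the same 432 residues as that of Ahcy.

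The following stretches of 30 bases hold the coding differences. At such positions, and at the ends, the bases of a read can tell one gene from the other. A spliced Ahcy read that crosses an exon junction without such a position has the same bases as a read of Gm4737. Capitals mark the bases that differ. The first pair lies in exon 5 of Ahcy (chr2:155064891-155064920) and in Gm4737 (chr16:46154532-46154561), and the second in exon 9 of Ahcy (chr2:155062242-155062271) and in Gm4737 (chr16:46153939-46153968). All are written 5′ to 3′ on the minus strand of GRCm38.
Ahcy, exon 5: gaggtatCtctgaggagaccacGactgggg
Gm4737, same stretch: gaggtatTtctgaggagaccacAactgggg
Ahcy, exon 9: tgtgcCatgggacaccccagcttCgtgatg
Gm4737, same stretch: tgtgcTatgggacaccccagcttTgtgatg

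**Figure D1:**
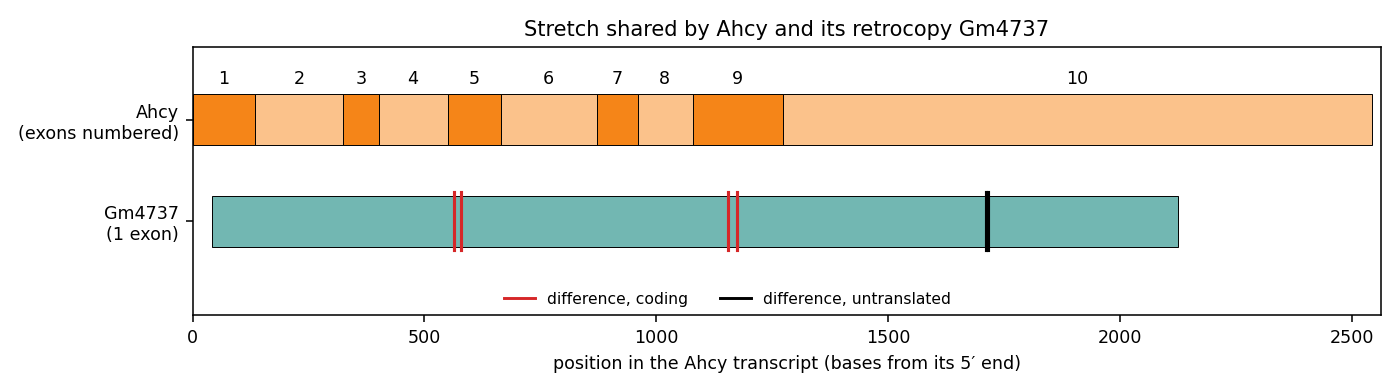
The 10 exons of the Ahcy transcript (upper bar) and the stretch of the Gm4737 transcript that aligns to it (lower bar), against position in the Ahcy transcript in bases. The 6 differences, 4 coding (red) and 2 untranslated (black, drawn nearly on top of each other), fall in exons 5, 9 and 10.

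The share of the transcripts that can separate the genes depends on the length of the read. Of the 1944 windows of 150 bases in the Gm4737 transcript, 1447 (74.4%) were identical in Ahcy, and of the 2394 such windows in the Ahcy transcript 60.4% were identical in Gm4737. Of the 1447 shared windows, 796 cross an exon junction of Ahcy and 651 lie within 1 exon. At a junction the genomic copies differ by an intron, but the spliced sequence is the same. At 50 bases, 90.4% of the Gm4737 windows and 74.1% of the Ahcy windows were identical in the other gene. Each window stands for a single read, so the other read of a pair could still separate the genes. Further copies of Ahcy were not included in these windows. The study aligned paired reads of 150 bases with TopHat and kept uniquely mapped reads, so the values of Ahcy and Gm4737 hold only the reads that this procedure placed at 1 locus. The reads were not analysed here, and the bases they carried at the 6 positions were not analysed here.

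Upstream of their starts, the genes share little. In the promoter sequences of RefSeq (GRCm38.p6), the 250 bases before the start had a GC content of 52.8% with 9 CpG for Ahcy, and of 29.6% with 0 CpG for Gm4737. Over 27025 genes with a promoter in that table, the median GC content of this window was 52%, 1.62% of genes were at or below the value of Gm4737, and 8.26% had no CpG. Ahcyl1 (chr3:107663118-107696560, minus strand) and Ahcyl2 (chr6:29768011-29912310, plus strand), each with 17 exons, are much further from Ahcy. Of their aligned residues, 51.0% and 51.4% were those of Ahcy, whereas Ahcyl1 and Ahcyl2 shared 88.7% with each other.

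The libraries held between 13603908 and 19359753 reads counted on genes. The deposited values are these counts divided by 1 size factor per library, and are called normalized reads below. Gfi1, on chromosome 5, had between 146.89 and 160.19 normalized reads in the Gfi1+/+ libraries and between 129.60 and 138.70 in the Gfi1cre/+ libraries. None of the 4 family genes is on that chromosome. The first principal component (54.3% of the variance) set Gfi1+/+ replicate 1 (-44.0) apart from the other libraries (-0.30 to 16.2). The genotypes were also apart on it. Gfi1+/+ replicates 2 and 3 were at -0.30 and 2.1, and the Gfi1cre/+ libraries ran from 11.1 to 16.2. The Y-linked gene Ddx3y was listed at 0 in the Gfi1+/+ libraries and had between 231.51 and 484.97 normalized reads in the Gfi1cre/+ libraries, so sex and genotype cannot be told apart for any gene below. All 7 erythroid markers had an unadjusted p-value under 0.05 in limma, 7 of 7 higher in Gfi1cre/+ by group mean, and their summed level ran from 29477 to 43831 in Gfi1+/+ and from 38327 to 66358 in Gfi1cre/+. Of 6 neuron markers 3 had such a p-value, with summed levels of 4313 to 10717 and of 3947 to 4213. Over all 14455 genes tested, 3.04% had such a p-value. The 4 genes with an adjusted p-value under 0.05 in limma were the Y-linked Ddx3y, Kdm5d, Eif2s3y and Uty, so no marker reached it. The hair cell markers (5 of 6 listed, all 5 tested) summed to between 4937 and 5935 in Gfi1+/+ and between 4688 and 5002 in Gfi1cre/+. None of them had an unadjusted p-value under 0.05, and the skeletal muscle markers were not analysed here. Whether these cell contents had a part in the differences described below was not tested.

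Ahcy, the parent gene of the pair, was lower in Gfi1cre/+. The Gfi1+/+ libraries had 151.82, 165.43 and 146.62 normalized reads of Ahcy, and the Gfi1cre/+ libraries had 103.57, 102.97 and 117.00. Every Gfi1cre/+ library was below every Gfi1+/+ library, and the spread within each genotype was smaller than the gap between them. The means were 155 ± 9.71 and 108 ± 7.93 (SD, n = 3), and the log2 difference, Gfi1cre/+ minus Gfi1+/+ on the scale of log2(value + 1), was -0.52 (SE 0.11). The counted reads behind these values ran from 116 to 158 per library, so counting alone sets a coarse limit to their precision.

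Gm4737, the intronless copy with the same open reading frame, was higher in Gfi1cre/+. It had 583.84, 594.70 and 531.63 normalized reads in Gfi1+/+ and 727.60, 711.92 and 668.02 in Gfi1cre/+. Again the genotypes did not overlap, in the direction opposite to Ahcy. The means were 570 ± 33.7 and 703 ± 30.9 (SD, n = 3), a log2 difference of 0.30 (SE 0.07), from 473 to 836 counted reads per library. As a background, 7.52% of the 14455 genes tested had genotypes that did not overlap, 4.07% with the lower values in Gfi1cre/+ and 3.45% with the higher ones. Since Ahcy and Gm4737 were chosen by these values, nothing is read from their place among those genes.

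**Figure D2:**
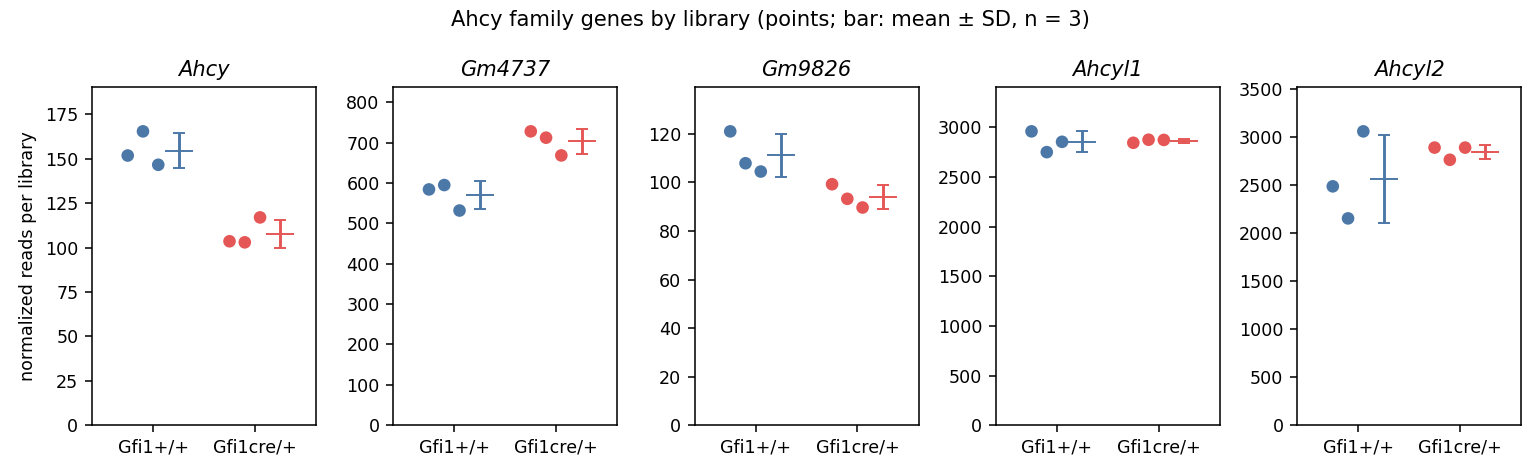
Normalized reads per library (points, axes from 0) of Ahcy, its retrocopies Gm4737 and Gm9826, and Ahcyl1 and Ahcyl2, with the mean ± SD of each genotype (n = 3) beside them. The genotypes are apart for the first 3 genes, with Gm4737 alone higher in Gfi1cre/+, and overlap for Ahcyl1 and Ahcyl2.

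On the log2 scale, the sum of Ahcy and Gm4737 differed less between genotypes than either gene. It came to 736, 760 and 678 normalized reads in Gfi1+/+ and to 831, 815 and 785 in Gfi1cre/+. The 3 Gfi1cre/+ sums were above the 3 Gfi1+/+ sums, though the closest pair, 785 and 760, lay nearer together than the lowest and highest Gfi1+/+ library. The log2 difference of the sum was 0.16 (SE 0.05). In normalized reads, Gfi1cre/+ had 46.8 fewer of Ahcy and 132 more of Gm4737 on average, so the lower level of Ahcy was smaller than the higher level of Gm4737.

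The share of Gm4737 in the pair does not depend on the size factors, because both genes are counted in the same library. Gm4737 took 79.4% (Wilson 95% interval 75.9 to 82.4), 78.2% (75.1 to 81.1) and 78.4% (75.0 to 81.4) of the pair's reads in the Gfi1+/+ libraries. In the Gfi1cre/+ libraries it took 87.5% (85.3 to 89.5), 87.4% (85.1 to 89.4) and 85.1% (82.5 to 87.4). The shares of a genotype lay within 2.44 percentage points of each other. The closest intervals of the genotypes ended at 82.4 (Gfi1+/+ replicate 1) and began at 82.5 (Gfi1cre/+ replicate 3). The share was among the values that chose the pair, so no test is read from the intervals. These intervals cover counting error only. The mean shares were 78.7% ± 0.61 and 86.7% ± 1.36 (SD, n = 3), a difference of 8.01 percentage points, and the ratio of Gm4737 to Ahcy was 3.69 ± 0.14 in Gfi1+/+ and 6.55 ± 0.73 in Gfi1cre/+. Whether read assignment between the copies, a strain allele at either locus or the level of the RNA itself accounts for the shift was not tested.

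**Figure D3:**
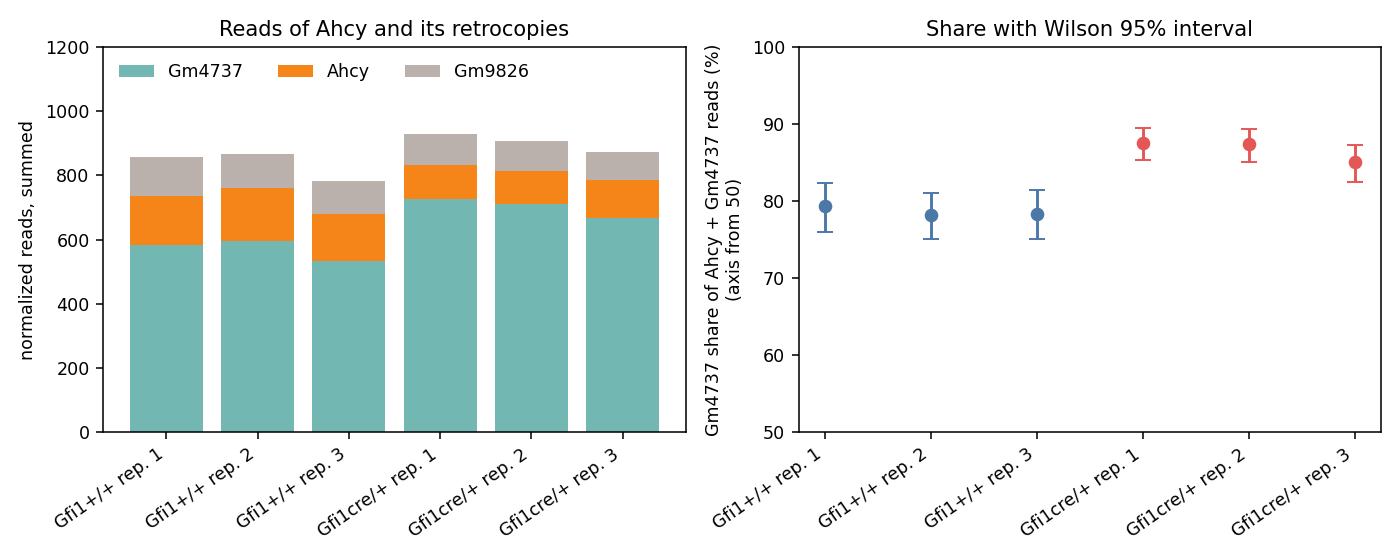
Left, normalized reads of Gm4737, Ahcy and Gm9826 stacked for each library (axis from 0). Right, Gm4737 reads as a percent of the reads of Ahcy and Gm4737 (axis from 50) with the Wilson 95% interval, near 79% in the 3 Gfi1+/+ libraries and between 85.1% and 87.5% in the Gfi1cre/+ libraries.

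A search of the annotated transcripts for other copies of Ahcy, made after these values had been seen, found Gm9826 (chr1:7177739-7179037, plus strand), a processed pseudogene with 99.2% identity to Ahcy over 1299 bases. Gm9826 had 120.97, 107.84 and 104.43 normalized reads in Gfi1+/+ and 99.22, 93.21 and 89.63 in Gfi1cre/+. Its genotypes did not overlap, with the lower values in Gfi1cre/+ as for Ahcy, but its log2 difference of -0.24 (SE 0.12) did not pass limma's test (unadjusted p = 0.084, adjusted p = 0.999). Over the 3 copies together, Gfi1cre/+ libraries had 904 ± 28.1 normalized reads and Gfi1+/+ libraries 836 ± 46.3 (SD, n = 3). Of the reads of the 3 copies, Ahcy held 18.5% ± 0.70 in Gfi1+/+ and 11.9% ± 1.24 in Gfi1cre/+. Gm4737 held 68.2% ± 0.30 and 77.7% ± 1.12, and Gm9826 held 13.3% ± 0.85 and 10.4% ± 0.24. The shares of all 3 copies were apart between the genotypes. They are parts of the same total, so a larger share of Gm4737 leaves a smaller share for the remaining copies.

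Pairs of a retrocopy and its parent elsewhere in the table give a scale for this ratio. Of 573 annotated retrocopies searched, 514 aligned to a listed parent at 95% identity or more over at least 80% of their length, with 423 parents among them, so that some pairs share a parent. The change of the log2 ratio of retrocopy to parent between genotypes had a median of 0.02, with quartiles of -0.07 and 0.09. The change was 0.82 for Gm4737 and Ahcy and 0.28 for Gm9826 and Ahcy. The ratio did not overlap between genotypes in 49 of the 514 pairs (9.53%), with 30 higher in Gfi1cre/+ (5.84%). In 2 pairs (0.389%) the retrocopy and the parent each had genotypes that did not overlap, in opposite directions. These were Gm4737 with Ahcy and, named after its values were seen, Gm9824 with Pebp1, whose ratio changed by 0.28. No other pair had a change of the absolute size found for Gm4737, the value for which it was chosen. Others came close, named after their values were seen: Gm14388 with Acp1 changed by -0.80 and Rps18-ps3 with Rps18 by 0.74. The ratios of both overlapped between genotypes.

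**Figure D4:**
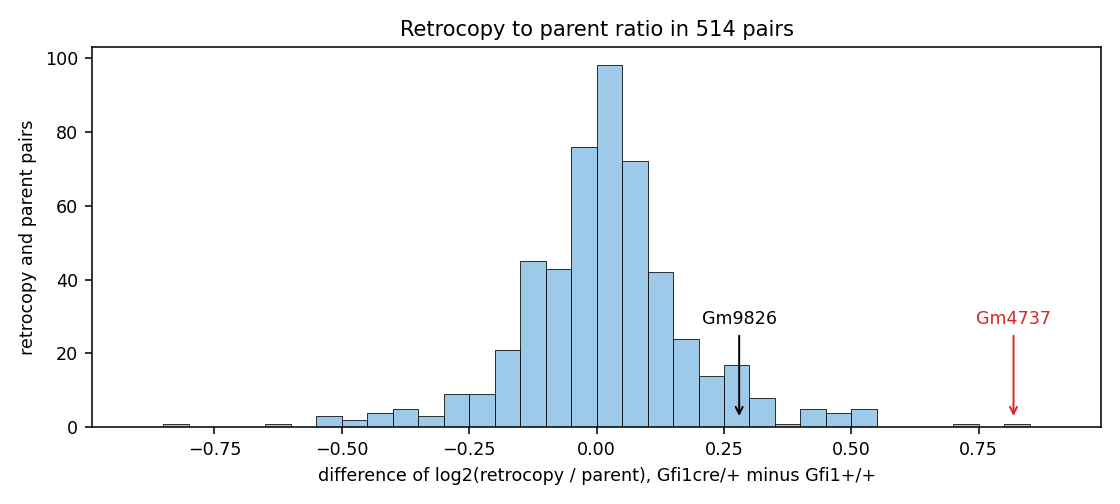
Number of retrocopy and parent pairs (514 in all) by the difference of log2(retrocopy / parent) between genotypes, Gfi1cre/+ minus Gfi1+/+. Most pairs lie close to 0 (quartiles -0.07 and 0.09), Gm9826 with Ahcy is at 0.28 and Gm4737 with Ahcy is the rightmost pair at 0.82. On the left, Gm14388 with Acp1 (not marked) is at -0.80.

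Ahcyl1 and Ahcyl2, the regulators of the family, had more reads than Ahcy and Gm4737, and their genotypes overlapped. Ahcyl1, the IRBIT gene, had 2957.47, 2748.40 and 2852.24 normalized reads in Gfi1+/+ and 2842.52, 2873.43 and 2871.14 in Gfi1cre/+. The Gfi1cre/+ values lay inside the range of Gfi1+/+, with means of 2853 ± 105 and 2862 ± 17.2 (SD, n = 3). The log2 difference was 0.01 (SE 0.05), and it was -0.02 without Gfi1+/+ replicate 2. Ahcyl2, its close homologue, had 2488.43, 2154.75 and 3061.09 normalized reads in Gfi1+/+ and 2892.13, 2765.13 and 2891.90 in Gfi1cre/+. Gfi1+/+ replicate 3 was the highest of the 6 libraries for Ahcyl2 and replicate 2 the lowest, and the genotypes overlapped. Ahcyl2 had means of 2568 ± 458 and 2850 ± 73.3 (SD, n = 3) and a log2 difference of 0.16 (SE 0.11), which fell to 0.05 without Gfi1+/+ replicate 2 and was 0.30 without Gfi1+/+ replicate 3. For both genes the larger spread was in Gfi1+/+, the genotype with 1 mouse per library. In the annotation, Ahcyl2 shares 288 exon bases with 4930528J11Rik on the other strand, and the strand setting of the counting is not given in the sources used here.

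Levels were compared between the 4 genes per kilobase of the main transcript. Ahcyl1 was the most abundant, with 738 ± 27.1 normalized reads per kilobase in Gfi1+/+ and 741 ± 4.46 in Gfi1cre/+, followed by Ahcyl2 with 498 ± 89.0 and 553 ± 14.2. Gm4737 was at 272 ± 16.1 and 336 ± 14.8, and Ahcy was lowest at 60.8 ± 3.82 and 42.4 ± 3.12 (SD, n = 3). No library of one gene reached the range of its neighbour in this order. The order depends on the length used: per kilobase of all annotated exons, Ahcyl2 was at 141 ± 25.1 in Gfi1+/+ and 156 ± 4.01 in Gfi1cre/+, below Gm4737, whereas Ahcyl1 remained the highest at 426 ± 15.6 and 428 ± 2.57. Because uniquely mapped reads alone were counted, the levels of Ahcy and Gm4737 leave out an unknown part of their reads. Reads assigned to the retrocopy outnumbered those assigned to the parent in 187 of the 514 pairs (36.4%), Gm4737 among them.

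The genes around each family gene were examined to see whether the differences extended along the chromosome. Of the 80 neighbours, the 10 nearest tested genes on each side of each family gene, 5 had an unadjusted p-value under 0.05 in limma, all lower in Gfi1cre/+, and 0 had an adjusted p-value under 0.05. edgeR's quasi-likelihood test gave 5 and 0, and DESeq2 gave 2 and 0. Over all 14455 genes tested, 3.04% had an unadjusted p-value under 0.05, with 147 higher (1.02%) and 292 lower (2.02%) in Gfi1cre/+, or 205 and 228 after quantile normalization. An adjusted p-value under 0.05 was reached by 4 genes (0.0277%). The median log2 difference was 0.01 for the neighbours and -0.00012 for all genes tested. The count of 5 fell to 2 without Gfi1+/+ replicate 1, rose to 10 without Gfi1+/+ replicate 3, and was 3 without Gfi1+/+ replicate 2, Gfi1cre/+ replicate 2 or Gfi1cre/+ replicate 3. The count over all 14455 genes, 439 with every library, moved too. It was 303, 2340, 547, 216 and 248 in these fits, in the order given.

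Beside Ahcy, 2 of 20 neighbours had such a p-value. Gm14226 (chr2:155018266-155027104), the nearest tested gene at lower coordinates, had 90.11, 97.37 and 60.12 normalized reads in Gfi1+/+ and 64.40, 55.92 and 53.78 in Gfi1cre/+, which overlap (log2 difference -0.48, SE 0.21, unadjusted p = 0.046 in limma). Itch, the nearest at higher coordinates and a ubiquitin ligase gene, differed by 0.09 (SE 0.05), with genotypes that did not overlap. Dynlrb1, a dynein light chain gene next to it, differed by -0.21 (SE 0.08, unadjusted p = 0.032 in limma), and its genotypes overlapped. Beside Gm4737 only Gtpbp8, the 10th gene at lower coordinates, had an unadjusted p-value under 0.05 in limma (log2 difference -0.17, SE 0.07, unadjusted p = 0.034, adjusted p = 0.999). The nearest tested genes of Gm4737 differed by -0.12 (SE 0.15) for Plcxd2 and 0.06 (SE 0.07) for Pvrl3, both with overlapping genotypes. The other 2 neighbours were Kcp (-0.36, SE 0.07) and Ccdc136 (-0.13, SE 0.06), both near Ahcyl2, with limma's adjusted p = 0.999 for both (unadjusted 0.000965 and 0.044). Gm14226 and Dynlrb1 had the same adjusted p in limma.

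Genes of the pathways around the AHCY reaction were then counted. Lists of 81 genes of the methionine cycle and its branches, without the 4 family genes, had 73 tested members. Of these, 1 was higher and 2 were lower in Gfi1cre/+ at an unadjusted p-value under 0.05 in limma (4.11%, against 3.04% of all genes), 0 had an adjusted p-value under 0.05, and the median log2 difference was 0.01. At the unadjusted threshold, edgeR's quasi-likelihood test gave 2 genes and DESeq2 1, and both gave 0 after adjustment. The count of 3 was 11 without Gfi1+/+ replicate 3, 1 without Gfi1cre/+ replicate 2, and 0 without Gfi1cre/+ replicate 1 or replicate 3. Over all 14455 genes, the count of 439 was 2340, 216, 313 and 248 in these fits, in the order given. The genotypes did not overlap in 7 of the 73 genes (9.59%), 5 higher and 2 lower in Gfi1cre/+, against 7.52% of all genes tested, 3.45% higher and 4.07% lower.

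The methionine cycle list, whose enzymes make S-adenosylmethionine and remethylate homocysteine, held 7 tested genes, 1 of them higher in Gfi1cre/+ at the unadjusted threshold. This was Bhmt, which remethylates homocysteine with betaine. Bhmt had 182.68, 115.17 and 208.85 normalized reads in Gfi1+/+ and 221.94, 213.93 and 245.32 in Gfi1cre/+, where the libraries lay above all of Gfi1+/+ and replicate 2 of Gfi1+/+ stood far below the rest. Its log2 difference was 0.47 (SE 0.19, unadjusted p = 0.040, adjusted p = 0.999, limma), and it fell to 0.21 without that library. Mat2b, a regulatory subunit of methionine adenosyltransferase, differed by -0.01 (SE 0.07), and Mtr, the methionine synthase, by 0.05 (SE 0.09). Mat1a and Mat2a were not analysed here.

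Downstream of AHCY, none of the 10 tested genes of adenosine disposal and none of the 11 of transsulfuration and glutathione had an unadjusted p-value under 0.05, with median log2 differences of -0.01 for each list. The lowest value in these lists, named after it was seen, was that of Cbs, which condenses homocysteine with serine. Cbs had 108.62, 49.21 and 44.30 normalized reads in Gfi1+/+ and 48.74, 40.83 and 35.85 in Gfi1cre/+, with Gfi1+/+ replicate 1 far above the rest and overlap between the others (log2 difference -0.57, SE 0.33, unadjusted p = 0.117, adjusted p = 0.999, limma). Adk, the adenosine kinase, differed by -0.07 (SE 0.09), and the nucleoside transporter genes Slc29a1 and Slc29a3 by 0.07 (SE 0.06) and 0.13 (SE 0.10). Gclc, the catalytic subunit of the first step of glutathione synthesis, differed by -0.01 (SE 0.07), and Csad, of taurine synthesis, by 0.01 (SE 0.06). Cdo1, the cysteine dioxygenase, was at 4450 normalized reads in Gfi1+/+ and 4730 in Gfi1cre/+ on average, with genotypes that did not overlap and a log2 difference of 0.09 (SE 0.05). Of the methylthioadenosine and polyamine list, 0 of 9 genes passed the unadjusted threshold, and Amd1, Srm and Odc1 differed by 0.08 (SE 0.09), 0.04 (SE 0.06) and 0.04 (SE 0.09).

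In the folate one-carbon list, 1 of 12 genes was lower at the unadjusted threshold. Mthfd1l, a mitochondrial enzyme of formate production, had 260.45, 212.54 and 204.64 normalized reads in Gfi1+/+ and 169.72, 200.62 and 184.93 in Gfi1cre/+, without overlap (log2 difference -0.28, SE 0.12, unadjusted p = 0.038, adjusted p = 0.999, limma). The genes with the highest levels in that list, Gart, Atic and Shmt2, differed by 0.01 (SE 0.06), -0.01 (SE 0.07) and 0.09 (SE 0.07). Among the methyltransferases, which produce the substrate of AHCY, 0 of 15 tested genes passed the unadjusted threshold, 12 had a positive and 3 a negative log2 difference, and the median was 0.03. Dnmt3a, a DNA methyltransferase, differed by 0.05 (SE 0.07), Prmt1, a protein arginine methyltransferase, by 0.00 (SE 0.10), and Icmt, which methylates prenylated proteins, by 0.07 (SE 0.05). Slc25a26, the mitochondrial carrier of S-adenosylmethionine, differed by -0.06 (SE 0.15).

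Of the partners of IRBIT, 8 of 10 were tested and 1 was lower in Gfi1cre/+ at the unadjusted threshold. Slc4a7, a sodium bicarbonate cotransporter gene, had 338.21, 343.42 and 310.12 normalized reads in Gfi1+/+ and 283.73, 294.71 and 300.98 in Gfi1cre/+, without overlap (log2 difference -0.17, SE 0.08, unadjusted p = 0.048, adjusted p = 0.999, limma). The genes of the inositol trisphosphate receptors, Itpr1, Itpr2 and Itpr3, differed by 0.09 (SE 0.09), 0.05 (SE 0.06) and 0.18 (SE 0.15), and their genotypes overlapped. Slc4a4, another bicarbonate cotransporter gene, named after its values were seen, had 565.33, 265.94 and 277.42 normalized reads in Gfi1+/+ and 243.69, 285.83 and 243.43 in Gfi1cre/+. Gfi1+/+ replicate 1 again stood far above the rest and the other libraries overlapped (log2 difference -0.43, SE 0.25, unadjusted p = 0.118, adjusted p = 0.999, limma).

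**Figure D5:**
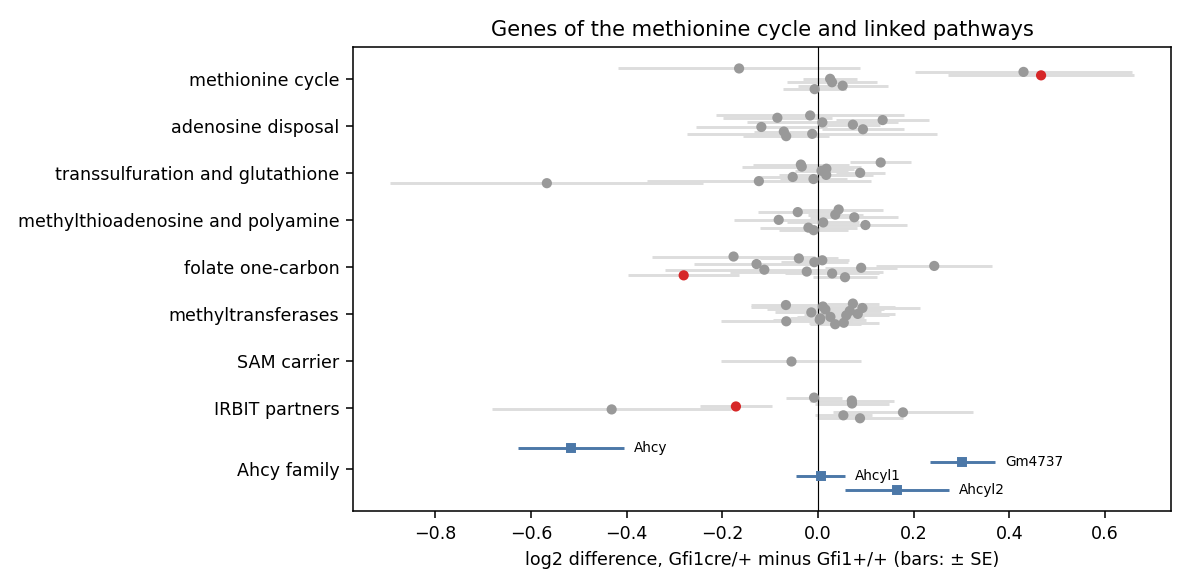
Log2 difference, Gfi1cre/+ minus Gfi1+/+, of the 73 tested genes of the pathway lists (circles, red where limma's unadjusted p-value was under 0.05) and of the 4 family genes (squares), with SE bars. Most list members lie within 0.2 of 0, Ahcy is at -0.52 and Gm4737 at 0.30.

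Across the 6 libraries, the genes whose levels followed Ahcy most closely were Gm11696, Meaf6, Sema3e, Cpne9 and Zfp354a, with a Pearson r of log2(value + 1) between 0.98 and 0.99. Those closest to Gm4737 were Wls, Xpo4, Prkrir, Spp1 and Mlf1, with r between 0.97 and 0.99. The libraries of all 10 genes were apart between the genotypes, so the likeness contains the difference that chose the pair, and it rests on 6 points. Of the other genes tested, 51 (0.353%) had an r of 0.9 or more with Ahcy and 59 (0.408%) with Gm4737. Their sizes of difference varied: Sema3e, which encodes a semaphorin, was at 83.7 ± 8.20 and 58.8 ± 3.02 normalized reads (SD, n = 3), a log2 difference of -0.50 (SE 0.15), whereas Wls, a carrier of Wnt proteins, was at 5201 ± 27.1 and 5285 ± 15.4, a difference of 0.02 (SE 0.05). Between the 2 genes of the pair, r was -0.88. The pair was chosen for opposite directions in these same libraries, so nothing is read from that value. Between Ahcyl1 and Ahcyl2, r was 0.38.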

How the data were processed

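From P8 cochlear ducts the authors made TruSeq libraries. TopHat aligned the paired reads to mm10, HTSeq counted those with a unique position, and genes under 40 reads were left out. Annotation, strand setting and versions are not given in the sources used here. The deposited signal per gene and library, described by the authors as quantile-normalized, was a whole read count divided by 1 size factor per library for 100% of values (tolerance 0.0051 reads), and these reads were recovered. Size factors equalled the median-of-ratios factors and ran from 0.81 to 1.15.

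The test used the 14455 of 14865 genes that reached 40 normalized reads in some library. It was limma 3.58.1 in R 4.3.3, applied to log2(value + 1). Genotype was its only term, eBayes had a trend, p-values were two-sided, and the Benjamini-Hochberg adjustment covered every tested gene. Fold changes of low genes are understated on this scale. SE are those of this fit, and of the 6 libraries for the sum. The methods describe the libraries of a genotype as independent. edgeR 4.0.16 and DESeq2 1.42.0 on the recovered reads, other scalings, pseudocounts, minima, the replicate block and left-out libraries were alternatives. Positions and transcripts came from GENCODE for GRCm38, the build called mm10 (14791 identifiers matched), promoters from RefSeq for GRCm38.p6 (4 of 4 family genes matched), and retrocopies were aligned with blastn 2.17.0. On simulated counts with the mean levels and size factors of these libraries, limma recovered 196 of 200 genes changed by 1 log2 unit, with 7 false calls among 14346 genes tested. Every simulated gene had the same dispersion, libraries were drawn independently, and only genes above a minimum level were changed. The outlying library and the pooling of mice were not simulated, so these counts do not measure power or error in the real libraries.

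The family genes and the lists were chosen with earlier results of these data known. Named beside them are the 3 genes of each pathway list with the highest mean and those with an unadjusted p-value under 0.05 and no overlap, the nearest neighbours of Ahcy and Gm4737 and those neighbours with an unadjusted p-value under 0.05, and the 5 genes most correlated with each of these. One gene that this rule names is not reported here. Gm9826 and the retrocopy pairs were added after the values were seen. Skeletal muscle markers and some list members, such as Cftr, were not analysed here. For the remaining marker lists, 0 of 5 supporting cell, 1 of 5 stria vascularis, 0 of 4 glia, 0 of 5 macrophage, 0 of 6 bone and cartilage and 0 of 1 listed liver markers had an unadjusted p-value under 0.05 in limma. The share over all genes tested was 3.04%.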

Additional observations from a re-analysis of the deposited data

How the results depend on the processing

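The log2 differences of Ahcy (-0.58 to -0.47), Gm4737 (0.25 to 0.34), Ahcyl2 (0.05 to 0.30) and the sum of Ahcy and Gm4737 (0.12 to 0.20 with each library left out; 0.11 with Gm9826 added to the sum, an alternative chosen after seeing the data) kept their sign under every alternative run, and that of Ahcyl1 ran from -0.02 to 0.03. All of these moved by less than 1 SD between replicates. The difference in the share of Gm4737, 8.01 percentage points, was 6.53 per kilobase of exon, 9.46 as a share of Ahcy, Gm4737 and Gm9826, and 7.57 to 8.79 with each library left out. Of all genes, 439 had an unadjusted p-value under 0.05 in limma, 229 among genes with a mean of at least 200, and 216 (without Gfi1cre/+ replicate 2) to 2340 (without Gfi1+/+ replicate 3) with each library left out. Of the pathway genes, the count of 3 was 1 at that minimum, 1 with DESeq2, and 0 to 11 with each library left out. Of the neighbours, the count of 5 was 3 in limma without trend, 2 with DESeq2, and 2 to 10 with each library left out. The replicate number as a block left 1 pathway gene and 3 neighbours, and moved the count of all genes from 439 to 462. Deviations of same-numbered libraries correlated at -0.09, 0.11 and -0.03, so the numbers were not taken to pair the samples. Depth limits Ahcy and Gm9826 most, with 116 to 158 and 95 to 114 reads per library.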
